A study of Homo sapiens with 6 samples.

Results

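The long intergenic noncoding RNA genes of the human genome that carry a LINC number were examined in undifferentiated H9 human embryonic stem cells (hESCs) and in the neuromesodermal progenitor-like (NMP-L) cells made from them. A gene was taken as expressed, and is called a member here, when its symbol was LINC followed by digits and its mean TPM reached 0.5 in the 3 hESC libraries or in the 3 NMP-L libraries. TPM, a measure of transcript abundance that sums to the same total in every library, is scaled for transcript length, so it can be compared between genes. By this rule 238 of the 1583 LINC symbols in the table were members, out of 27672 genes in all, and 1345 LINC genes stayed below the floor. The members were selected on their TPM, so levels near the floor and the mere presence of a member are a description and not a result. Just inside the floor lay LINC00853, LINC00899 and LINC02352, with means of 0.50, 0.507 and 0.507 TPM in their higher condition, and just outside it LINC01988, LINC01655 and LINC01611, with 0.497, 0.487 and 0.463 TPM.

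Polyadenylated RNA was sequenced as 76-base single-end reads from 3 replicates of each state, which the labels call biological. The hESCs, of the H9 line, were untreated day 0 cells on fibronectin, and their DEF medium held bFGF at 30 ng/ml together with Noggin at 10 ng/ml. The NMP-L cells were the same line after 3 days in a Neurobasal medium with N2 and B27, bFGF at 20 ng/ml and CHIR99021 at 3 µM, an inhibitor of GSK3 that activates WNT signalling. By the labels all libraries therefore share 1 cell line and the presence of bFGF, while medium, bFGF dose, Noggin and CHIR99021 changed together with the day. The study's methods instead name TESR medium on Geltrex for the hESCs and give BMP and TGFβ inhibitors over days that overlap those of the NMP-L cells, so which factors differed besides CHIR99021 is not settled here. The labels do not say whether replicates were separate differentiations. Library totals ran from 19454543 to 19744142 expected counts in hESCs and from 20687062 to 23036426 in NMP-L cells, and members held 0.113% to 0.17% of them. The labelled states were checked against their markers. Of 6 pluripotency markers tested 5 were lower in NMP-L cells, where their summed level was 3860 to 4030 TPM against 5610 to 6000 in hESCs. Of 7 caudal progenitor markers tested 6 were higher and TBX6 was lower, with a sum over the list of 126 to 171 TPM against 11.7 to 16. FGF8, on the same list but too scarce for the test, had 4, 11 and 7 counts in hESCs and 3, 2 and 1 in NMP-L cells. Of 4 mesoderm markers tested TCF15 and PDGFRA were lower, and MESP2 and FOXC1 were not called. The sum over that list was 4.72 to 6.32 TPM against 11.4 to 12.5. MESP1, too scarce for the test, had 1, 0 and 4 counts and then 6, 8 and 5, and HAND1 was at or under 3 counts in every library. These are bulk libraries, so a smaller share of cells with a transcript and less of it per cell cannot be told apart.

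A LINC number is given to a transcript that has no recognised protein and mostly lies between coding genes. Such RNAs are usually less abundant and more restricted to a cell state than messenger RNAs. Some act on the gene beside them, some act elsewhere in the cell, for many the act of transcription or no function at all is known, and a few were later found to encode small proteins. In human pluripotent cells a set of abundant LINC RNAs is known that is scarce in most other tissues, and several of these start in long terminal repeats of endogenous retroviruses. Members were placed on GRCh37, the same build as the hg19 of the submitters' processing notes, with GENCODE release 44 lifted to that build. This placed 218 members, 187 by symbol and 31 by an older symbol, and 20 were not placed. The promoter windows printed here run over the 250 bases before the start site and the first 50 bases from it, and are given 5′ to 3′ on the strand of the gene. Capitals mark every match, on either strand, to 5 motifs whose letters are TATAAA for the TATA box, CTTTGAT for the TCF/LEF motif, ATTTGCAT for the octamer, GGGCGG for the GC box, and CCAAT for the motif of that name. No motif contains another, although matches may touch or overlap.

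The first set shows 3 members that were among the largest rises, chosen for their position beside genes of developmental transcription factors. These are LINC01124 (chr2:171571028-171571327, minus strand), LINC00261 (chr20:22559231-22559530, minus strand) and LINC01152 (chr17:70026452-70026751, plus strand).
LINC01124: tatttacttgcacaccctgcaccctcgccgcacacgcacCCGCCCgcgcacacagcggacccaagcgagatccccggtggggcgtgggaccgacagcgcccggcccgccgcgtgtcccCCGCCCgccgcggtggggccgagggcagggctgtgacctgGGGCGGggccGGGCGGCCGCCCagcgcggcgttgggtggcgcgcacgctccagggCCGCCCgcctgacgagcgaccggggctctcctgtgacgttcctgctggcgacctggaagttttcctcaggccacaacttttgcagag
LINC00261: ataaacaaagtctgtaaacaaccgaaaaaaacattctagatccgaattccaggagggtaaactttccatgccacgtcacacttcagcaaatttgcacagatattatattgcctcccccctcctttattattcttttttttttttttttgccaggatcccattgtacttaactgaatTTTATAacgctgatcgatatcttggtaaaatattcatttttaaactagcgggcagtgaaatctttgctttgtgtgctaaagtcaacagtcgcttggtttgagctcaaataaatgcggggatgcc
LINC01152: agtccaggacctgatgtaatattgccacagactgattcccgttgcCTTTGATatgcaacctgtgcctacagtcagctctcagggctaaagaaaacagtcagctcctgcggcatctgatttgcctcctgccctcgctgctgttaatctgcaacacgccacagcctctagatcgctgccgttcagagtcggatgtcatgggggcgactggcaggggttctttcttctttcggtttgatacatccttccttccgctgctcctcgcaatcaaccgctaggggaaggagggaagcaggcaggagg
LINC01124 had 6 GC boxes in a window of 74.0% G and C, whereas the LINC00261 window held 37.0% G and C and 1 TATA box on the opposite strand. LINC01152 carried 1 TCF/LEF match.

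For comparison, LINC01108 (chr6:14285327-14285626, minus strand) is shown as a member of the pluripotency list that fell.
LINC01108: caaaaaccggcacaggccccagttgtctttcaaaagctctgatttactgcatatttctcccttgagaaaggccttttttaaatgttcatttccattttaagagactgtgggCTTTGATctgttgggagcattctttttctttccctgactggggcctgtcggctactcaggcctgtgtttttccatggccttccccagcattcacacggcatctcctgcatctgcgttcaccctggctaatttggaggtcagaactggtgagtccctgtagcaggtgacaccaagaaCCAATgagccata
This window held 1 TCF/LEF match and 1 CCAAT box and no GC box.

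To compare the states, expected counts were rounded and fitted with edgeR's quasi-likelihood test over all 15517 genes that passed its filter on low counts. A gene is called different when its Benjamini-Hochberg adjusted p over all of these genes was under 0.05. The filter passed 171 members, and 67 members had too few counts to be tested. With no filter on low counts 16 of those 67 were called, beside 43.3% of the 20918 genes then fitted. Of the 171, 98 were called, 68 higher and 30 lower in NMP-L cells. Across all genes tested 55.8% were called, 29.1% higher and 26.7% lower, and among all tested genes past the same TPM floor 56.1% were called, against 57.3% of tested members. The share called among members was thus close to the background, and the direction was less even, with 69.4% of called members higher against 52.2% of called genes past the floor. A change of at least 2-fold was called for 43 members that rose and 21 that fell. These are 25.1% and 12.3% of tested members, beside 9.38% and 9.18% of all genes tested and 9.22% and 8.95% of those past the floor. Changes of this size were more frequent among scarce than among abundant genes past the floor, and with genes past the floor weighted to the levels of the members the shares were 14.3% and 14.0%. The median log2 fold change over tested members was 0.27, against 0.03 for genes past the floor. Libraries of the states did not overlap in 97 of the 98 called members, the exception being LINC00173. The same share over all called genes was not counted, so this is a description and not a trait of members. Leaving out members whose counts were fractional, a sign that reads were shared with another gene, and those with an exon over a coding exon left 127 tested members, with 47 higher and 23 lower.

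Part of these counts follows from the rule. Of the members, 170 reached the floor in both states, 19 only in hESCs and 49 only in NMP-L cells. Among the 170, 145 were tested and 75 called, 51 higher and 24 lower. Of these 26 rose and 15 fell at least 2-fold. Of the 49, 19 were tested and 17 rose, and of the 19, 7 were tested and 6 fell, all at least 2-fold. The 43 rises and 21 falls of at least 2-fold given above include those of the single-state groups. The last groups had to differ by their choice, so they carry no weight of their own. Members were also scarcer and noisier than most genes. Their median level in the higher state was 1.98 TPM against 15.6 for genes past the floor, their median biological coefficient of variation 0.148 against 0.102, and the median standard error of their log2 fold change 0.25 against 0.122. The 564 other genes past the floor that GENCODE classes as lncRNA had a median of 2.46 TPM, and 202 of 427 tested (47.3%) were called, 135 higher and 67 lower. Of these others 15.9% rose and 7.49% fell at least 2-fold.

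**Figure D1:**
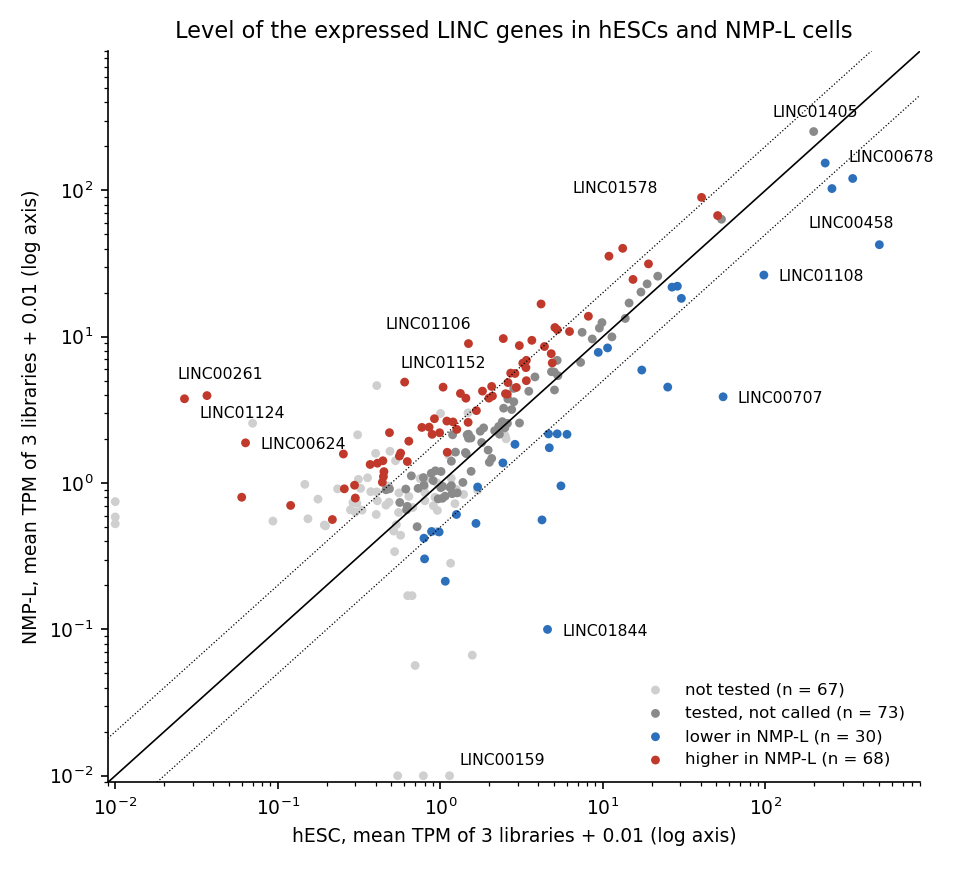
Mean TPM of each of the 238 members in hESCs (horizontal) and NMP-L cells (vertical), with 0.01 added so that 0 can be drawn on log axes; the solid line marks equal levels, the dotted lines a 2-fold difference, and colours give the edgeR call. LINC01124, LINC00261 and LINC00624 stand far to the upper left and LINC01844 and LINC00707 to the lower right, while LINC01405 lies near the line.

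Members were then set beside all genes of the same level. Between 0.5 and 1 TPM in the higher state, 10 of 21 tested members (47.6%) were called, beside 47.0% of all genes at that level. From 1 to 2 TPM the shares were 43.6% and 50.9%, from 2 to 5 TPM 60.4% and 57.7%, and from 5 to 20 TPM 62.2% and 56.6%. Above 20 TPM, 16 of 21 members (76.2%) were called beside 57.0% of genes. In that highest group the direction was the opposite of the whole, with 10 members lower and 6 higher. Changes of at least 2-fold were called for 47.6%, 38.5%, 37.7%, 27.0% and 42.9% of members in these bands, from the lowest to the highest, and for 38.2%, 37.2%, 32.1%, 18.6% and 9.49% of all genes.

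**Figure D2:**
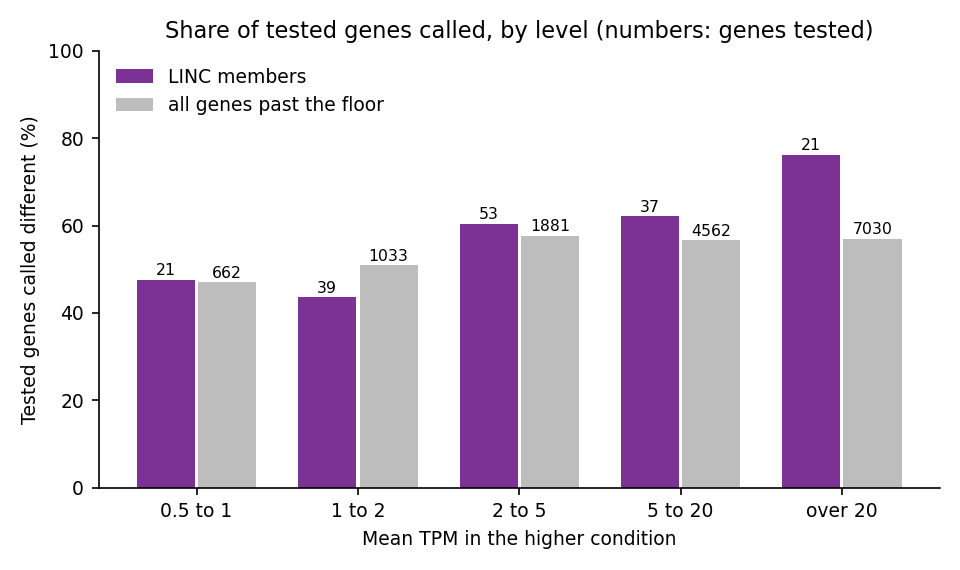
Percentage of tested genes called different (vertical) by mean TPM in the higher state (horizontal), for members and for all genes past the floor, with the number of genes tested above each bar. The bars of a pair differ less below 20 TPM than above it, where members reach 76.2% against 57.0%.

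A few RNAs made up most of the LINC output of the stem cells, and the total was lower in NMP-L cells. Summed over members, the 3 hESC libraries held 2493, 2505 and 2496 TPM and the 3 NMP-L libraries 1840, 1687 and 1802 TPM. The 6 members with the highest mean over all libraries, LINC00458, LINC00678, LINC01405, LINC01356, LINC00428 and LINC01578, made up 62.3% to 63.9% of this sum in hESCs and 41.7% to 44.3% in NMP-L cells. Among these 6, LINC01405 and LINC01578 had a higher mean TPM in NMP-L cells, and the rest a lower one. The other members together held 901 to 943 TPM in hESCs and 940 to 1052 TPM in NMP-L cells, so there the ranges meet. At the same time 196 to 201 members had over 3 counts in a hESC library and 212 to 220 in an NMP-L library. Part of this follows from the rule, since 49 members reached the floor only in NMP-L cells and 19 only in hESCs. Over all 1583 LINC genes, which the rule did not choose, 239 to 243 had over 3 counts in a hESC library and 254 to 278 in an NMP-L library. The NMP-L libraries were also the deeper ones, and the part of depth in these numbers was not tested. By level, the order in hESCs was LINC00458, LINC00678, LINC00428, LINC01356, LINC01405 and LINC01108. In NMP-L cells it was LINC01405, LINC01356, LINC00678, LINC00428, LINC01578 and LINC00665, and LINC00458 had moved from rank 1 to rank 8.

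**Figure D3:**
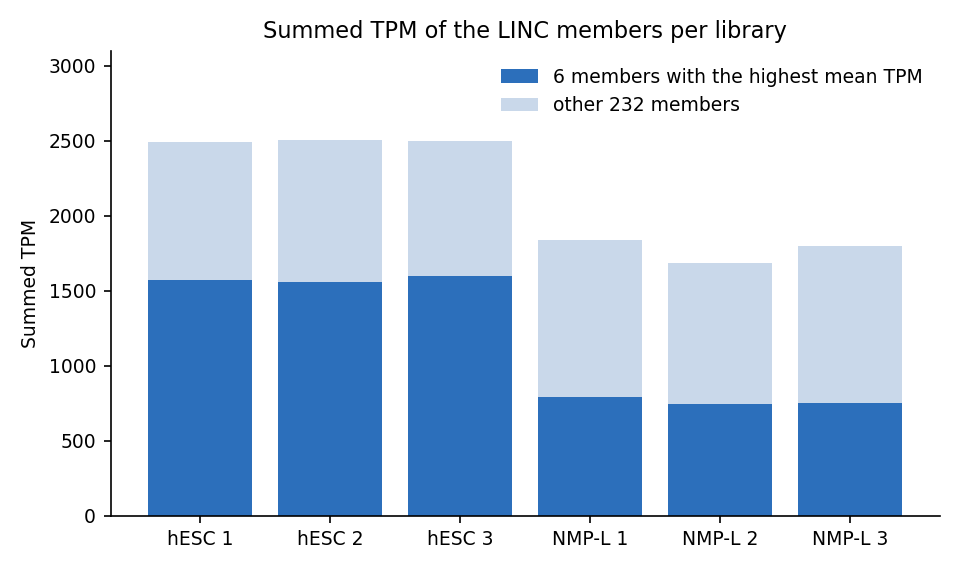
Summed TPM of all members in each library (vertical), split into the 6 members with the highest mean TPM (dark) and the others (light). The dark part is 1561 to 1595 TPM in the hESC libraries and 747 to 788 TPM in the NMP-L libraries, and the light parts differ far less.

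LINC00458 lies alone on chromosome 13 (54524390 to 54844532), 1240547 bp from the start of the nearest coding gene, OLFM4. Its levels were 514, 468 and 526 TPM in hESCs and 44.1, 33.9 and 49.7 TPM in NMP-L cells. Every hESC library was above every NMP-L library, and the log2 fold change was -3.66 ± 0.12 (SE, n = 3 and 3; edgeR adjusted p = 1.4e-09). It was the most abundant LINC RNA of the stem cells and still held over 40 TPM on average on day 3, with a mean of 42.5 TPM. LINC00678 on chromosome 11 (27639173 to 27656174) had 351, 328 and 354 TPM in hESCs and 125, 124 and 113 TPM in NMP-L cells. It fell by 1.61 ± 0.09 on the log2 scale (edgeR adjusted p = 6.1e-08). BDNF, the gene of a neurotrophin on the same strand 65933 bp away, fell as well, by 1.85 ± 0.17. LINC01108 on chromosome 6 had 82.6, 119 and 92.1 TPM in hESCs and 27.9, 22.5 and 28.8 TPM in NMP-L cells, a fall of 2.00 ± 0.14 (SE, n = 3 and 3) on the log2 scale with an edgeR adjusted p of 4.7e-07. In LINC00428, a short annotated gene on chromosome 13 (43416550 to 43417023), the levels were 260, 255 and 255 TPM and then 112, 99.6 and 97.1 TPM. Again no library overlapped, and the log2 fold change was -1.44 ± 0.09 (edgeR adjusted p = 2.3e-07).

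Of the list of LINC genes described in pluripotent cells, 5 of 7 were in the table under the listed symbols, all 5 were members, and all 5 fell. The list was drawn up with results of these samples known, so its direction is not independent evidence. Beside LINC00458, LINC00678 and LINC01108 these were LINC01356 and LINC00545. LINC01356 declined least, from 219, 250 and 231 TPM to 164, 139 and 159 TPM, a log2 fold change of -0.70 ± 0.09 (edgeR adjusted p = 5.4e-05). LINC00545 went from 28.2, 32.7 and 30.3 TPM to 21.7, 16.4 and 16.8 TPM, a log2 fold change of -0.83 ± 0.18 (edgeR adjusted p = 0.0025). The summed level of the 5 was 1200 to 1230 TPM in hESCs and 335 to 382 TPM in NMP-L cells. Among the other named lncRNA genes, which carry no LINC number, LINC-ROR, an RNA described in the maintenance and gain of pluripotency, had 32.9, 35.0 and 31.7 TPM and then 3.01, 3.82 and 3.05 TPM. It fell by 3.43 ± 0.13 on the log2 scale. DANCR, described as holding progenitors undifferentiated, fell by 1.66 ± 0.09, and MIR17HG, the host of the miR-17-92 microRNAs, by 1.85 ± 0.29. HOTAIRM1, which starts in the HOXA cluster, rose by 4.91 ± 0.66. In all, 19 of 31 tested genes of that list were called, 10 higher and 9 lower.

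LINC01405, which starts 15998 bp from MYL2 and is described in muscle, became the most abundant member in NMP-L cells without a called change. Its levels were 183, 221 and 191 TPM in hESCs and 262, 264 and 231 TPM in NMP-L cells. The log2 fold change of 0.25 ± 0.12 missed the threshold (edgeR adjusted p = 0.094), and counts scaled by library size overlapped. Under 5 of the alternatives it passed, 2 of which leave out 1 library: it was 0.34 without NMP-L replicate 3 and 0.35 without hESC replicate 2. MYL2 itself, the ventricular myosin light chain, had at most 1 count in every library. The TPM of some members rests on few counts. LINC01405 had a median of 2.63 counts per TPM, LINC00428 5.94 and LINC01108 36.1, where the median was 14.1 over members and 27.0 over all genes past the floor. The extreme was LINC00159, a member on the strength of 1 count in hESC replicate 1, which the table gives as 3.39 TPM. In all, 49 members had a mean under 10 counts in both states, and LINC00159, LINC00571, LINC01237 and LINC02121 had at most 3 counts in every library.

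LINC01578, now named CHASERR, rose. This RNA is known to restrain CHD2, the chromatin remodeller gene downstream of it on the same strand. It had 43.6, 40.1 and 37.7 TPM in hESCs and 80.9, 86.5 and 101 TPM in NMP-L cells. The libraries did not overlap, and the log2 fold change was 1.05 ± 0.10 (edgeR adjusted p = 3.9e-06). CHD2 was also higher, by 0.47 ± 0.08. In the annotation the spans of both genes overlap on 1 strand, and how reads were divided between them is not given in the sources used here.

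The largest fall was in an RNA that NMP-L cells had nearly lost. LINC01844 on chromosome 5 (142095794 to 142140600) was counted 117, 83 and 79 times in hESCs and 0, 1 and 5 times in NMP-L cells. These correspond to 5.92, 3.89 and 3.86 TPM and to 0.00, 0.05 and 0.22 TPM. The fitted log2 fold change was -5.68 ± 0.47 (edgeR adjusted p = 1.4e-06), and -7.38 without NMP-L replicate 3, the library with 5 of the 6 remaining counts. The nearest coding gene, FGF1, a fibroblast growth factor gene whose start lies 30139 bp away, was scarce in both states and fell by 2.47 ± 0.55. LINC00707 on chromosome 10 (6821511 to 6884868) had 58.9, 57.7 and 48.2 TPM in hESCs and 3.84, 3.81 and 3.98 TPM in NMP-L cells. This fall of 3.92 ± 0.12 (SE, n = 3 and 3) on the log2 scale had an adjusted p of 1.1e-09 in edgeR. PRKCQ, the gene of a protein kinase C that starts 199294 bp away, fell by 1.44 ± 0.09. LINC01508 on chromosome 9 changed by -3.01 ± 0.33, from 3.75, 3.8 and 5.09 TPM to 0.41, 0.54 and 0.70 TPM. LINC00605 on chromosome 14 went from 7.32, 4.8 and 4.42 TPM to 0.90, 0.61 and 1.33 TPM, a log2 fold change of -2.62 ± 0.30. Its nearest coding gene, TNFAIP2, changed by -2.0 ± 0.15, though its start is 65567 bp away.

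LINC00599, now named MIR124-1HG, hosts a microRNA known for its abundance in neurons. It had 22.6, 23 and 29.6 TPM in hESCs and 5.83, 2.28 and 5.44 TPM in NMP-L cells, and its log2 fold change was -2.57 ± 0.25 (edgeR adjusted p = 5.3e-06). The values overlap in no library. Neural markers did not move in 1 direction beside it. Of the 3 tested SOX1 rose, TUBB3 fell and DCX was not called (edgeR adjusted p = 0.17), and NEUROG2 was at or under 3 counts in every library. The summed level of the list, 262 to 295 TPM in hESCs and 164 to 186 TPM in NMP-L cells, was almost all TUBB3, with means of 273.0 and 163.8 TPM. Their part in the level of LINC00599 was not tested. LINC01018 changed by -2.46 ± 0.40, but it lies antisense to NSUN2, a gene for an RNA methyltransferase, and has an exon over one of that gene's exons, so without a known strand setting its reads may come from either. NSUN2 itself fell by 0.54 ± 0.07. LINC00884, now ATP13A3-DT, starts 144 bp from ATP13A3 on the other strand and fell by 1.74 ± 0.40, from 14, 21 and 14 counts to 6, 3 and 8, whereas ATP13A3 was not called (0.26 ± 0.18). LINC00371, which RefSeq now lists as the coding gene C13orf42, fell by 1.65 ± 0.13. The other 20 called falls lay between -1.61 and -0.36 on the log2 scale.

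The largest rise was next to SP5, a transcription factor gene known as a direct target of WNT signalling. LINC01124 (chromosome 2, 171568961 to 171571077) was counted 0, 1 and 0 times in hESCs and 80, 75 and 86 times in NMP-L cells, the latter being 3.69, 3.66 and 3.92 TPM. Scaled by library size the summed counts were 206 times as high in NMP-L cells, with an exact 95% counting interval of 36.6 to 8160. The fitted log2 fold change was 7.26 ± 0.47 (edgeR adjusted p = 2.2e-07), and 9.24 without hESC replicate 2, which holds the only hESC count. SP5, on the other strand with its start 770 bp away, went from 5, 6 and 6 counts to 1344, 1066 and 1352 counts, a log2 fold change of 7.53 ± 0.17. Its mean level on day 3 was 64.3 TPM, that of LINC01124 3.76 TPM. Both genes were therefore near absent in hESCs, and neither had a library that overlapped between states. The 771 bases from one start to the other held 2 TCF/LEF matches, 7 GC boxes and 2 CCAAT boxes, and both TCF/LEF matches lay outside the LINC01124 window printed above.

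LINC00261 (chromosome 20, 22528301 to 22559280) starts 5930 bp from FOXA2 on the same strand. FOXA2 is a transcription factor gene of endoderm, node and floor plate, and LINC00261 is known from endoderm, where it accompanies FOXA2. The hESC libraries held 0, 2 and 2 counts of LINC00261 and the NMP-L libraries 197, 122 and 286, the latter being 3.83, 2.52 and 5.50 TPM. The scaled ratio of summed counts was 129, with an exact 95% counting interval of 50.1 to 475, and the fitted log2 fold change was 6.88 ± 0.48 (edgeR adjusted p = 4e-07). FOXA2 had 0, 5 and 2 counts and then 473, 264 and 535 counts, a log2 fold change of 7.20 ± 0.42. NMP-L replicate 2 was the lowest of the day 3 libraries for both genes and replicate 3 the highest. The listed endoderm markers were weak in both states. Their summed level was 6.12 to 7.78 TPM in hESCs and 9.90 to 13.4 TPM in NMP-L cells. Of 2 tested HHEX was higher and CXCR4 was not called. SOX17 and CER1 were at or under 3 counts in every library. GATA4 had 7, 8 and 15 counts in hESCs and 5, 10 and 2 in NMP-L cells, and GATA6 had 3, 1 and 2 and then 7, 6 and 3.

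LINC01152 (chromosome 17, 70026432 to 70037451) starts 90459 bp from SOX9 on the same strand, in the long gene-poor region before this transcription factor gene of neural crest and cartilage. It had 0.50, 0.50 and 0.78 TPM in hESCs and 3.92, 4.98 and 5.76 TPM in NMP-L cells. The log2 fold change was 2.92 ± 0.22 (edgeR adjusted p = 6.5e-07). SOX9 rose by 1.79 ± 0.12, from a mean of 5.31 to 19.6 TPM. The span of LINC01152 lies within that of LINC02095, a member on the other strand with too few counts for the test. LINC00624 had 4, 0 and 1 counts and then 66, 56 and 72 counts, and its fitted log2 fold change was 4.95 ± 0.47, or 6.48 without hESC replicate 1, which holds 4 of the 5 hESC counts. It lies antisense to CHD1L, with an exon over a coding exon, and starts 23572 bp from BCL9, the gene of a β-catenin cofactor, which rose by 0.96 ± 0.08.

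Other large rises were of scarce RNAs or of copies. LINC00908 had 1 count in each hESC library and 23, 12 and 19 counts in NMP-L cells, a scaled ratio of 15.4 with an exact 95% counting interval of 4.98 to 76.8. LINC02427 rose by 2.52 ± 0.56 and LINC01512, on the strand of VEGFA and 120834 bp from its start, by 2.49 ± 0.48. Both had under 20 counts in every library, and without hESC replicate 2 these values were 3.11 and 3.08. LINC01106 and LINC01123 are copies on chromosome 2 beside LIMS4 and LIMS3, and their promoter windows of 300 bases were identical at every position. LINC01106 had 1.41, 1.76 and 1.27 TPM and then 9.97, 8.05 and 8.88 TPM, LINC01123 0.83, 1.02 and 1.24 TPM and then 5.02, 4.63 and 3.89 TPM. Their log2 fold changes of 2.5 ± 0.18 and 2.09 ± 0.22 rest on reads the counting split between them, so the division is uncertain. LINC00680 also had fractional counts and rose by 1.98 ± 0.35. The other 58 called rises ran from 0.26 to 1.98 on the log2 scale.

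**Figure D4:**
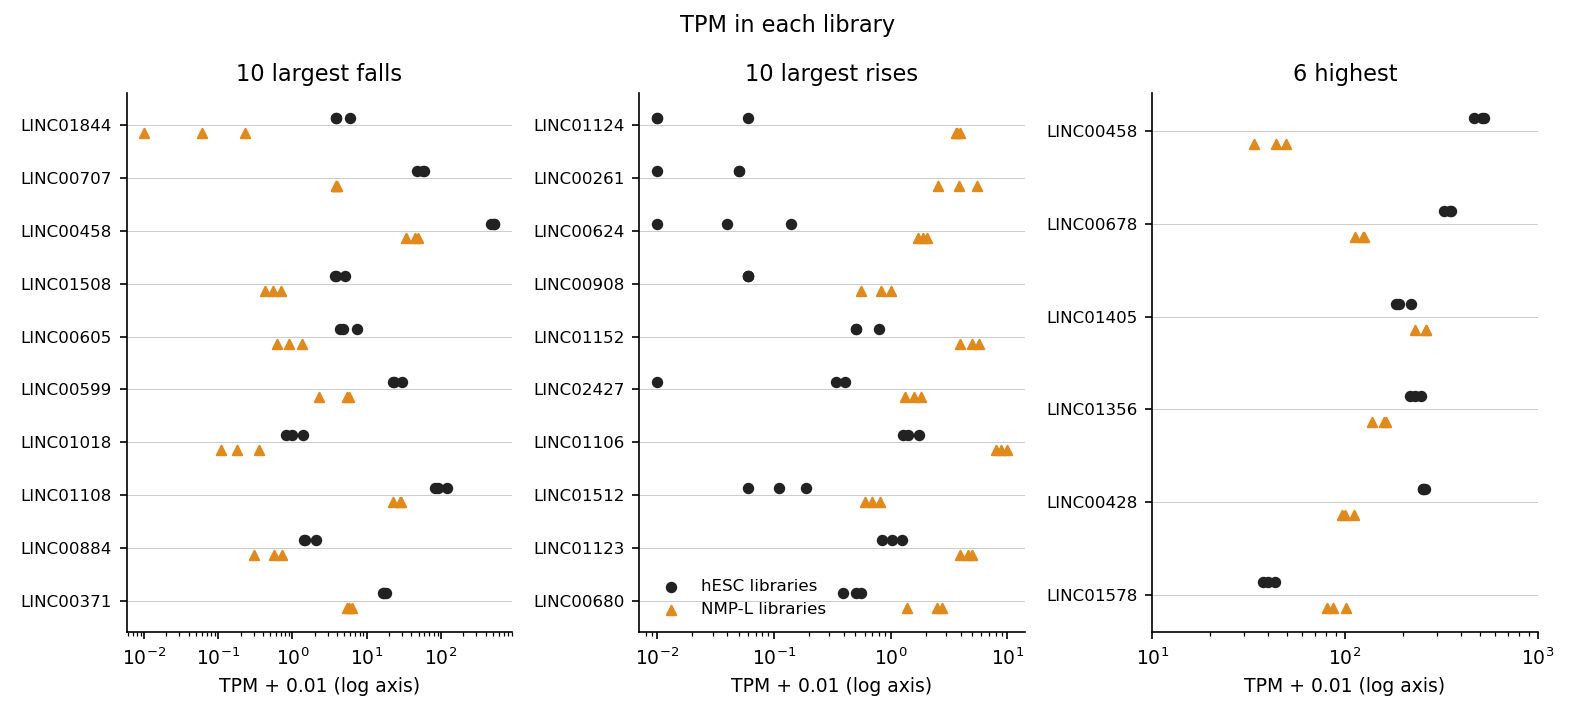
TPM in each library, with 0.01 added for the log axis, for the 10 largest called falls, the 10 largest called rises and the 6 members with the highest mean TPM; circles are hESC libraries and triangles NMP-L libraries. In the first 2 panels the symbols of the states do not overlap, and in the third LINC01405 and LINC01578 are the only members with NMP-L libraries on the right.

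Of the LINC genes described in many tissues the files hold 8, and 7 were members. Of these 6 were called, 5 of them higher. LINC00467 went from 10.8, 14.1 and 14.8 TPM to 42.2, 40.4 and 38.0 TPM, a log2 fold change of 1.5 ± 0.15. LINC00909, LINC00667 and LINC00888 rose by 0.94 ± 0.15, 0.70 ± 0.11 and 0.64 ± 0.14, and LINC00665 by 0.26 ± 0.09, a call that was lost in 7 alternatives. LINC00654 fell by 1.02 ± 0.22, and LINC00662 was not called (-0.19 ± 0.26). The 3 members on the list of genes now known to encode a small protein did not pass the test. RefSeq lists 10 members as protein-coding today, and of the 9 tested 1 rose and 4 fell. LINC00998, the gene of the membrane protein SMIM30, had 48.3 to 63.4 TPM in hESCs and 56.1 to 74.3 TPM in NMP-L cells, with a log2 fold change of 0.15 ± 0.13. LINC00116, the gene of the mitochondrial peptide mitoregulin, gave -0.29 ± 0.13, and LINC00094, now BRD3OS, 0.30 ± 0.12 with an edgeR adjusted p of 0.050. Among LINC genes described in a lineage, 11 were in the table and 3 were members. LINC00261 rose, LINC01021, a p53-responsive RNA also named PURPL, was not called (0.13 ± 0.17), and LINC01405 is given above. The brain-associated LINC01158 and LINC01551 had at most 3 counts in every library.

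The smallest differences were measured in LINC01876, LINC01126, LINC01002 and LINC01194. LINC01126 starts 604 bp from ZFP36L2 on the other strand, and its counts were 10, 6 and 11 in hESCs and 10, 6 and 16 in NMP-L cells. Its log2 fold change of 0.01 ± 0.42 leaves room for a sizeable change in either direction. In LINC01002 the value was -0.02 ± 0.23, with overlapping libraries. Of the 73 tested members that were not called, log2 fold changes lay between -0.67 and 0.90.

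Expressed LINC genes lay closer to coding genes than the others of their kind. Of the 218 placed, 33 (15.1%) had a divergent start within 5 kb of that of a coding gene, 18 overlapped a coding gene on the other strand, 10 on the same strand, and 157 (72.0%) overlapped none. Of LINC genes below the floor, 2.86% were divergent and 89.6% overlapped none. The median distance to the start of the nearest coding gene was 48068 bp for members and 109958 bp below the floor. These shares are descriptions, and level chose the groups. Of the 33 divergent members 24 were tested, and 11 rose and 4 fell, a share called of 62.5% beside 57.3% of all tested members.

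Nearest coding genes were then set beside their members. In 120 pairs both genes were tested, and across these pairs the log2 fold changes had a Spearman correlation of 0.37, as a description over genes that share all 6 libraries. Both were called in 48 pairs, of which 34 moved in the same direction and 14 in opposite directions. In these 48 pairs 28 neighbours rose and 20 fell. Of 16 pairs with at least 2-fold called changes on both sides, 13 moved together. Named above are LINC01124 with SP5, LINC00261 with FOXA2, LINC01152 with SOX9, LINC01844 with FGF1, LINC00707 with PRKCQ, LINC00605 with TNFAIP2, LINC00678 with BDNF, and LINC01108 with CD83, which fell by 1.16 ± 0.16. In opposite directions went LINC00654 and GPCPD1, which rose by 1.65 ± 0.11, and, chosen after their values were seen, LINC01006 with RNF32 and LINC01144 with HPDL. With starts within 10 kb 8 of 12 called pairs moved together, from 10 to 100 kb 16 of 23, and beyond 100 kb 10 of 13. Of the 10 called divergent pairs 7 did. The pairs are not all independent, since LIMS4 and LIMS3, beside the copies LINC01106 and LINC01123, had the same counts. The 3 called pairs that overlap on the same strand all moved together, and how their reads were divided is not known. Neighbouring genes that are not members were not paired in this way, so the shares are not set against a background.

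**Figure D5:**
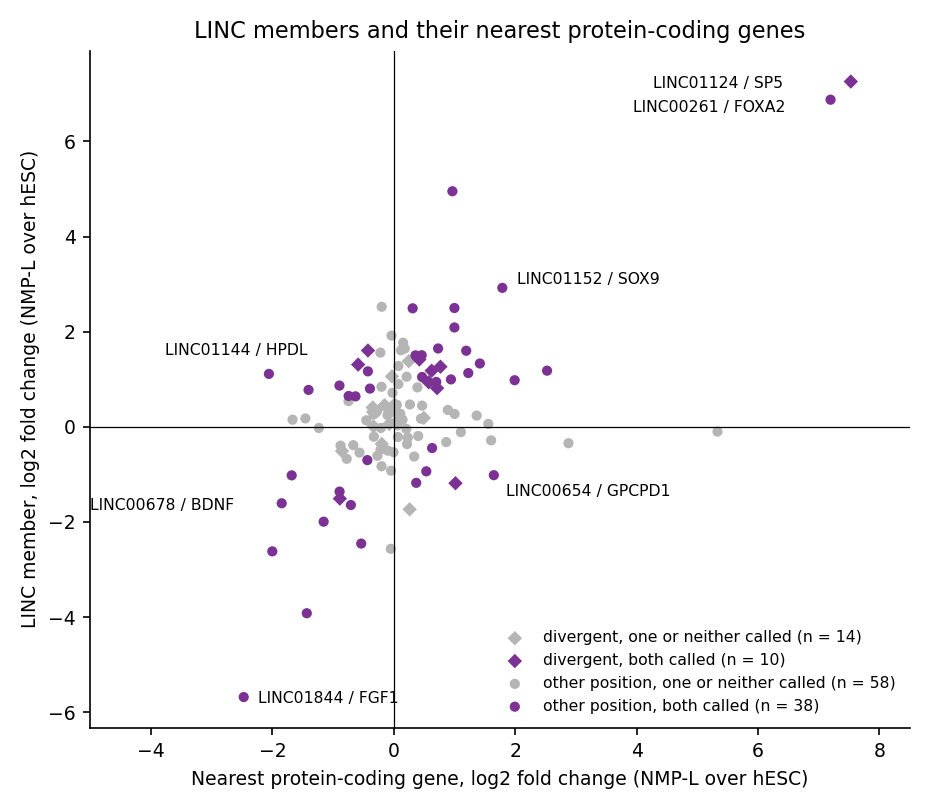
Log2 fold change of the nearest coding gene (horizontal) and of the member (vertical), NMP-L over hESC, for the 120 pairs in which both were tested; purple marks the 48 pairs with both genes called and diamonds divergent starts. The pairs of LINC01124 with SP5 and LINC00261 with FOXA2 lie at the upper right, apart from the rest.

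Promoters of members were poorer in G and C than those of all genes. Over the 217 windows of members the median was 55.3% G and C, and 45.6% had an observed over expected CpG ratio above 0.6, against 62.3% and 62.0% over 22775 windows of all matched genes. Members that rose had 56.3% G and C, with 27 of 59 windows (45.8%) above that ratio. Members that fell had 50.3% G and C, with 5 of 27 (18.5%) above it. A GC box was found in 40.1% of member windows, in 42.4% of those that rose and in 25.9% of those that fell, against 56.3% of all windows. TATA box letters stood in 12.4% of member windows, 15.3% of those that rose and 22.2% of those that fell, against 10.4% of all. The CCAAT box shares were 34.6% of members and 35.9% of all windows. The TCF/LEF letters were present in 11 member windows (5.07%) and in 2.13% of all. Of those 11, LINC01152, LINC00963 and LINC00648 rose, LINC01108 and LINC00654 fell, and the other members were not called or not tested. The octamer stood in 5 member windows (2.30%) and in 1.69% of all, and in 0 of the 27 that fell. A match is a run of letters and not a bound site. The motif shares were not set beside windows matched for G and C content, so they carry no reading as an excess.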

How the data were processed

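RNA-seq of 3 hESC and 3 NMP-L libraries was analysed. Each library has a column of RSEM expected counts, which the authors deposited without normalization, and a column of TPM as the authors deposited it, which RSEM scales by effective transcript length. The submitters' processing notes name cutadapt 1.9.1, STAR 2.5.2a, RSEM 1.3.0, DESeq2 1.12.3 and hg19. The gene annotation and the strand setting of the counting are not given in the sources used here. The filter was filterByExpr with a minimum count of 10, the scaling TMM and the design the condition alone, in edgeR 4.0.16 and R 4.3.3. On counts simulated for 15334 genes of this comparison, 86 of 100 genes changed by 1 on the log2 scale and 99 of 100 changed by 2 were called, with 17 false calls among 15134 unchanged genes. Far fewer genes changed there than the 55.8% called in the data, and members are scarcer and noisier than most genes. These rates therefore need not hold for members. A gene at or under 3 counts in a library (0.130 to 0.154 CPM) was treated as at the detection floor. Counting intervals cover counting error only, and p-values measure the spread between these libraries. With 3 against 3 libraries an exact permutation test cannot give a p under 0.1.

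Older symbols were matched through RefSeq names, with 23550 of all symbols matched directly, 958 through an older symbol and 3164 not matched. Read-through genes that carry a member's symbol were not taken as its neighbour, a choice made after seeing the data. Members named were the 10 largest called rises and falls without overlap of libraries, the 6 highest by mean TPM, the list members, the 3 genes on each side of the TPM floor and the 4 smallest differences, with their nearest coding genes, the state markers and 4 genes of the other lncRNA list. The members and lists were chosen with earlier results of these data known. Alternatives were other scaling factors, DESeq2 1.42.0, other filters and floors, limma 3.58.1 on log2(TPM + 0.1) or log2(TPM + 1), a replicate block and leaving out each library. Leaving out members with shared reads or overlapping exons, and weighting genes to the levels of the members, were added after seeing the data. Promoter sequences of some named members are not reported here.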

Additional observations from a re-analysis of the deposited data

How the results depend on the processing

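The numbers of called members stayed within 1.5 times their values in the report under the other scalings, DESeq2, limma on log2(TPM + 0.1), no filter, other TPM floors, the choice of members with no shared reads or overlapping exons, and each left-out library, where 87 to 94 members were called, 59 to 66 higher, 27 to 33 lower and 58 to 69 at least 2-fold. They moved further when 10 counts were required in every library, which left 113 tested members, with 62 called, 44 higher, 18 lower and 30 at least 2-fold, and for limma on log2(TPM + 1), which shrinks folds of low genes, with 34 at least 2-fold. DESeq2 called 83. No called member turned direction in any alternative that called it. Of 41 tested members that the text names under the stated rule, 38 kept their call in each alternative that tested them, the exceptions being LINC01405, LINC00665 and LINC00094, and 14 of the 41 were not tested when 10 counts were required in every library. A fit with the replicate number as a block called 89 members, all among the 98. Same-numbered libraries did not deviate together, with correlations of -0.37, -0.06 and -0.13, so the numbers were not taken as pairs. Scarce members are limited by depth: 67 were not tested, and TPM of short transcripts can rest on single counts.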

Other observations

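Several members with too few counts for the test lie beside developmental regulators. With no filter on low counts 16 of the 67 untested members were called by edgeR, 9 higher and 7 lower in NMP-L cells, beside 108 of all 238. The following were picked from these after their values were seen. LINC02095, which starts 62947 bp from SOX9 on the other strand, went from 2, 1 and 0 counts to 13, 10 and 16 counts. Its span holds that of LINC01152 on the opposite strand, so without a known strand setting reads of the pair cannot be told apart, and SOX9 rose. LINC00403, which starts 10133 bp from SOX1, a gene of the early neural plate, and overlaps it on the same strand, had 0, 3 and 1 counts and then 11, 9 and 12 counts, and SOX1 rose by 4.72 ± 0.27 on the log2 scale. LINC01833, divergent from the forebrain gene SIX3 with starts 2503 bp apart, had 17, 7 and 15 counts and then 0, 4 and 1 counts, and SIX3 fell by 3.42 ± 0.36. The libraries of the states did not overlap for any of these 3 members, but they were picked among called members, so this carries no weight of its own. Untested members beside other regulator genes were called only in part in that fit. LINC00824, nearest to MYC, was lower and LINC01270, nearest to CEBPB, was higher (edgeR adjusted p = 0.0068 and 0.0079). LINC01248 by SOX11, LINC00632 by SOX3 and LINC01162 by SP8 were not called (edgeR adjusted p = 0.82, 0.78 and 0.19).

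Members with 0 counts in a whole state were few. LINC01571 had 0 counts in every hESC library and 0, 2 and 6 on day 3 and was not called with no filter on low counts (edgeR adjusted p = 0.079). LINC02415 had 3, 9 and 7 counts and then 0 in every NMP-L library, and LINC02478 had 3, 1 and 5 counts and then 0. Both were called lower in that fit, with edgeR adjusted p of 0.0021 and 0.024, and no fold is given, since so few counts stand behind them.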
